A study of Ovis aries with 91 samples.

Results

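The 45 genes described here were higher in the right than in the left atrial appendage when whole tissue of sheep was sequenced. When cardiomyocytes isolated from the appendages were sequenced, these genes were on average higher on the right by at most 0.15, or not at all. They were chosen from the 12667 genes listed for both kinds of sample. A member had to be right-higher in at least 8 of 9 sheep in whole tissue with a mean right minus left difference of at least 0.5, and to have a mean right minus left difference of 0.15 or less in cardiomyocytes. It also needed a mean level of at least 1 in both kinds of sample and a mean paced change under 0.8 in size in both, where the paced change is the mean of all transition and chronic samples minus the mean of all control samples. All of these values are on the deposited log2 CPM scale, that is the log2 of reads of a gene scaled to a fixed library total. The right-higher criterion in whole tissue alone took 571 genes, of which 82 were within the limit for cardiomyocytes. Of those, 49 passed the level and 45 of the 49 the paced change. The remaining 526 right-higher genes of whole tissue serve below as those most like the members, with no limit set on level or paced change. Right minus left differences over all sheep, levels and mean paced changes in the appendages are therefore descriptions of the choice. The change of a single side or state against control sheep is part of the mean paced change, so it is described too, with no p-value printed for a member.

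The left and right atria differ in how they form and in the genes their walls use, and these differences persist in the adult heart. Whole atrial tissue holds fibroblasts, endothelial cells, smooth muscle, nerve, epicardium, fat and blood cells beside the cardiomyocytes, the contracting muscle cells, which isolation leaves as the main cells. In bulk tissue, fewer cells of a type and less RNA per cell cannot be told apart. The deposited tables list sheep Ensembl identifiers without names, and 0 of 13803 identifiers matched the sheep gene table used here, so members are given by identifier and without a role. For the same reason no marker gene of any cell type could be looked up, the label of the cardiomyocyte samples could not be checked against markers, and the part that a different mix of cells plays in any difference below was not tested.

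A device implanted in the right atrium paced the heart fast and so brought on atrial fibrillation, a disordered rhythm in which the atria beat fast and unevenly, and how the sham and control sheep were handled is not given in the labels. Whole tissue and cardiomyocytes each came from both appendages of 9 sheep, with 3 sheep per state: control, transition and chronic. Transition sheep were D24, D27 and D30 in whole tissue and D23, D24 and D27 in cardiomyocytes, and chronic sheep were D15, D16 and D19 in whole tissue and D16, D19 and D20 in cardiomyocytes. In both, the controls were the sham sheep S3 and S4 together with C1, which the labels call control and the column names sham. The posterior left atrium, the wall between the pulmonary veins, was sequenced as tissue from 6 transition and 6 control sheep, without chronic sheep. Of these, 5 also gave appendage samples, and the transition sheep with G numbers were titled saline. Age, sex and the length of pacing are not used here. Each sheep is 1 replicate, its technical replicates having been merged in the deposited columns. Whole tissue samples held 6.24e+06 to 2.24e+07 listed reads and cardiomyocyte samples 5.31e+06 to 1.24e+07, while for the posterior left atrium the depth is unknown.

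Members were genes of ordinary abundance. Their mean levels in whole tissue ran between 1.32 and 9.36 log2 CPM with a median of 3.87, against 4.11 for all genes, and in cardiomyocytes between 1.01 and 8.42 with a median of 3.01, against 3.77 for all genes. The median member had a median of 129.5 reads per whole tissue sample and 63 per cardiomyocyte sample, and the lowest single count was 4 reads in both tables. In whole tissue the mean right minus left difference had a median of 0.75, which is 1.69-fold on the linear scale, and lay between 0.50 and 2.04. In cardiomyocytes the same members had a median of −0.05 and lay between −0.53 and 0.14, with 15 of them at 0 or more. Nearest the thresholds, the member just inside, ENSOARG00000007141, had a whole tissue difference of 0.50 against 0.49 for the gene just outside, and in cardiomyocytes the last member inside had 0.14 and the first gene outside 0.15.

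The member with the widest difference was ENSOARG00000017833. In right appendage tissue it had 4.56 (C1), 4.48 (S3) and 4.92 (S4) log2 CPM in control sheep, 4.50 (D24), 4.20 (D27) and 3.73 (D30) in transition sheep and 4.10 (D15), 3.72 (D16) and 3.99 (D19) in chronic sheep. In left appendage tissue of the same animals it had 2.79, 2.62 and 2.16 log2 CPM in control sheep, 3.89, 1.70 and 2.01 in transition sheep and 1.67, 3.21 and −0.195 in chronic sheep. The right side was higher in every sheep, and only the left sample of D24 reached above the lowest right sample; the left value of D19 rested on 7 reads. In cardiomyocytes the sides overlapped. Right cardiomyocytes had 3.19, 2.97 and 1.94 log2 CPM in C1, S3 and S4, 3.47, 2.69 and 2.08 in D23, D24 and D27, and 2.87, 2.62 and 2.54 in D16, D19 and D20. Left cardiomyocytes had 3.98, 2.96 and 3.95 in the same controls, 2.63, 2.55 and 2.06 in the transition sheep and 2.76, 2.41 and 2.88 in the chronic sheep. The control sheep C1 and S4 had the highest left values and lay well above their own right samples.

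ENSOARG00000018898 followed with a mean whole tissue difference of 1.58. Its right appendage levels were 4.64, 4.77 and 4.65 log2 CPM in the control sheep C1, S3 and S4, 4.58, 3.80 and 4.49 in the transition sheep and 4.73, 4.36 and 4.46 in the chronic sheep. Its left appendage levels were 2.76, 3.08 and 2.51 in the control sheep, 2.90, 3.36 and 3.51 in the transition sheep and 2.99, 3.11 and 2.09 in the chronic sheep. No left sample reached the lowest right sample, and D27 had the narrowest gap. In cardiomyocytes it was left-higher in all 3 controls and in D24.

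**Figure D1:**
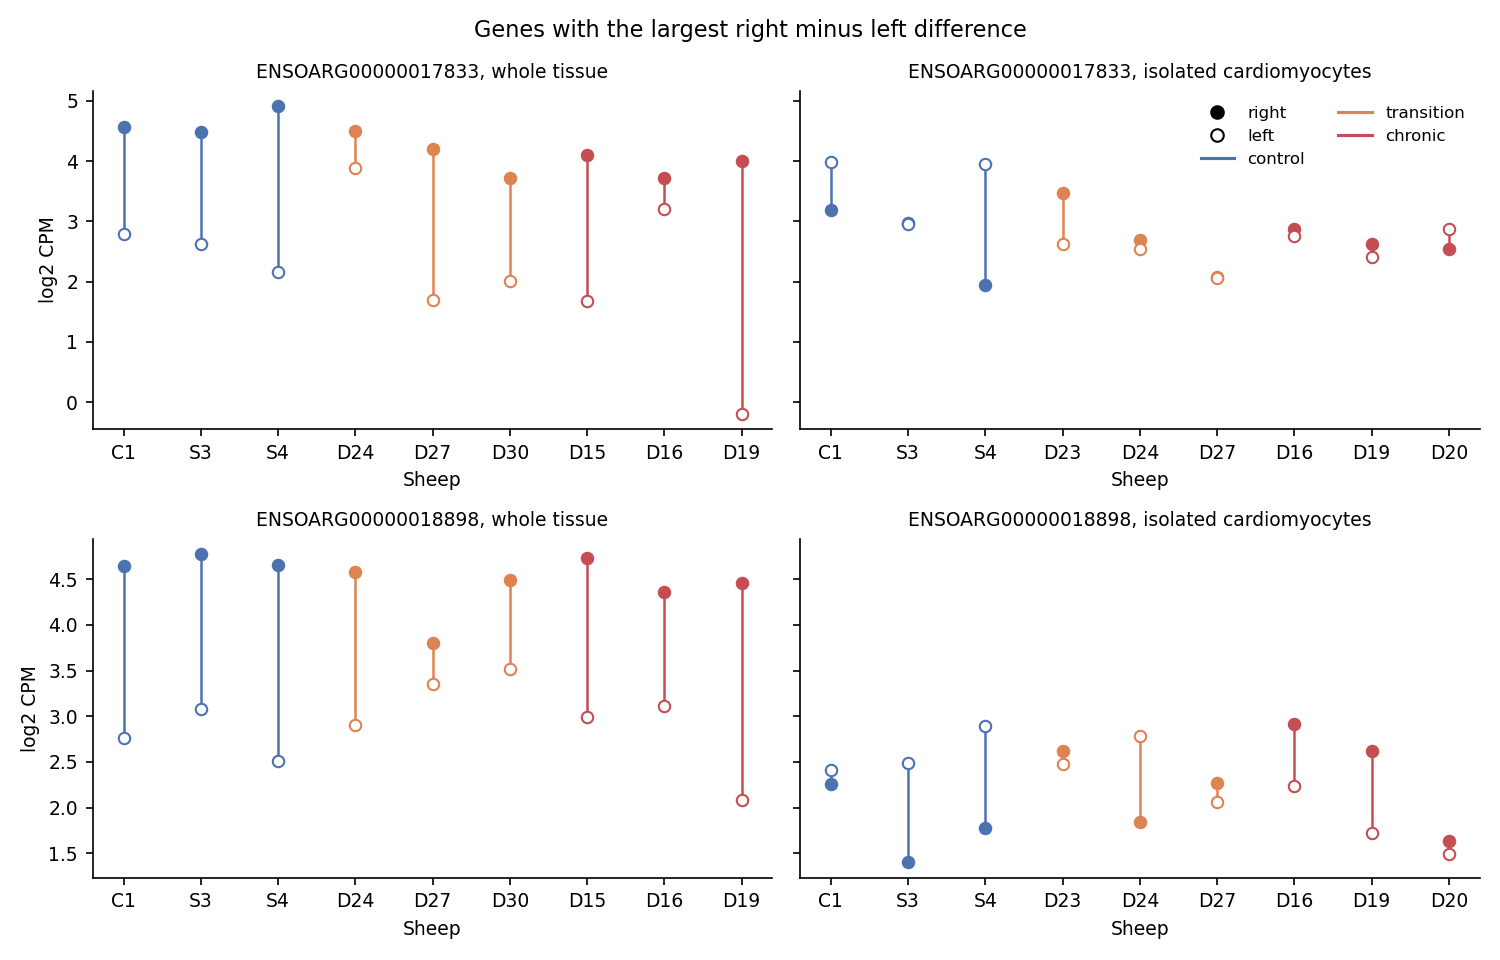
Levels (log2 CPM) of ENSOARG00000017833 (top) and ENSOARG00000018898 (bottom) in each sheep, in whole tissue and in isolated cardiomyocytes, with filled points for the right and open points for the left appendage, joined within a sheep and coloured by state. In whole tissue the right point is above the left in all 9 sheep for both genes, and in cardiomyocytes the left point is above the right in C1 and S4 for both.

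The right-higher pattern was not equally strong in every animal. In whole tissue the median over members of right minus left was 1.70 in S3, 1.23 in S4 and 0.90 in C1 among controls, and all 45 members were right-higher in each of them. It was 0.32, 0.28 and 0.93 in the transition sheep D24, D27 and D30, with 39, 27 and 44 members right-higher. It was 0.77, 0.43 and 0.88 in the chronic sheep D15, D16 and D19, with 43, 42 and 43 members right-higher. D24 and D27 had the smallest differences, D30 overlapped the controls, and the median over all genes stayed between −0.03 and 0.01. Of the 45 members, 13 were right-higher in all 9 sheep and 32 in 8 of them. The only sheep with the left side higher was D27 for 18 of these 32 members, D24 for 6 and never a control.

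Cardiomyocytes showed a different order of animals. The median over members of right minus left was −0.62 in C1, −0.02 in S3 and −0.66 in S4 among controls, where 7, 22 and 8 of the 45 members were right-higher. It was 0.47, −0.19 and −0.01 in the transition sheep D23, D24 and D27, and 0.03, 0.09 and −0.04 in the chronic sheep D16, D19 and D20. So a mean near 0 over the 9 sheep combined controls C1 and S4, in which most members were left-higher, with paced sheep lying around 0 and D23 above it, where 38 members were right-higher.

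**Figure D2:**
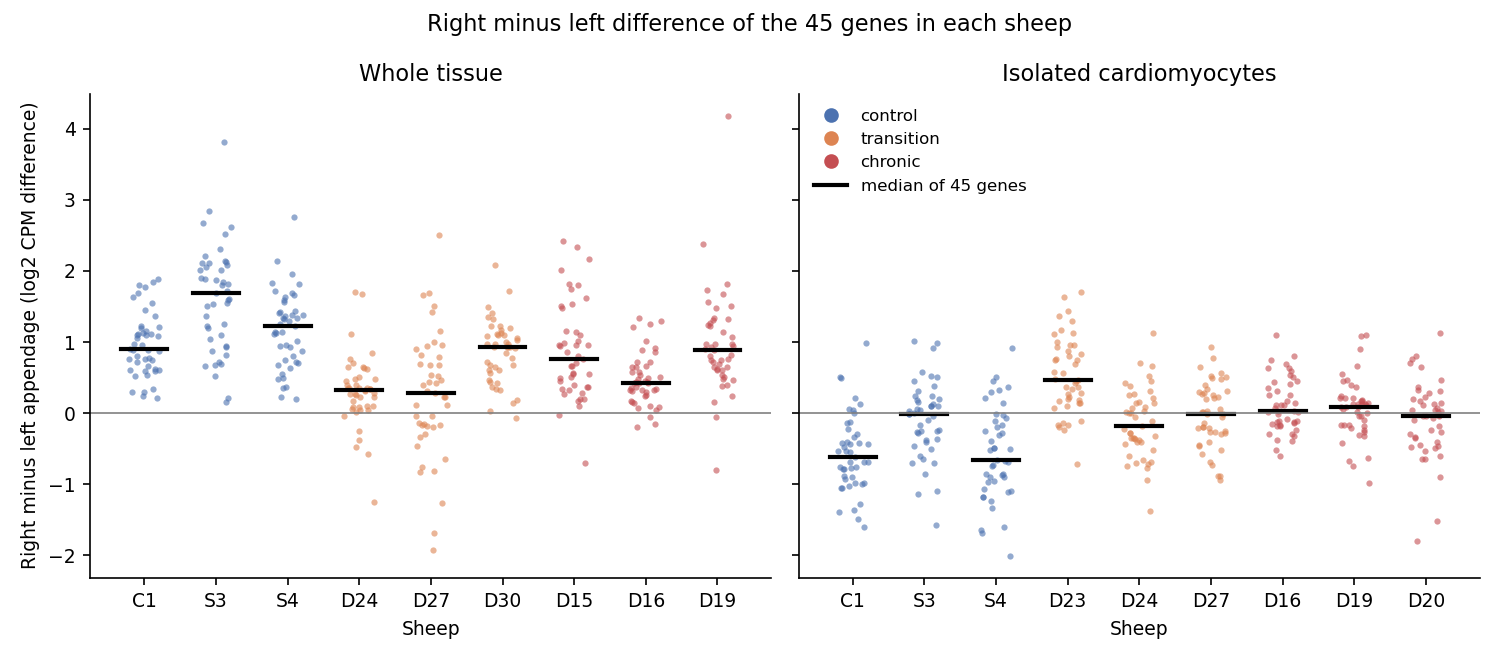
Right minus left difference (log2 CPM) in each sheep, in whole tissue and in isolated cardiomyocytes, with a point per gene for the 45 members, a bar at their median and colour for the state. Whole tissue medians are above 0 in every sheep and smallest in D24 and D27, while cardiomyocyte medians lie near 0 in most sheep, below it in C1 and S4 and above it in D23.

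Because the rule used all 9 whole tissue sheep, it was also applied with each sheep left out and the sign asked of 7 of the other 8. The genes it then chose were read in the sheep left out. Only whole tissue was left out, so cardiomyocyte samples of that sheep, where it had them, still entered the choice. With a control sheep left out, the median right minus left in that sheep was 0.88 in C1, 1.52 in S3 and 1.11 in S4, and 89.1% to 95.6% of the genes chosen were right-higher there. In the transition sheep it was 0.088 in D24, −0.12 in D27 and 0.78 in D30, with 58.5%, 42.6% and 91.5% right-higher, where all genes had 47.2% to 51.3% over the 9 sheep. In the chronic sheep it was 0.49 in D15, 0.33 in D16 and 0.75 in D19, with 76.3% to 88.0% right-higher. The right-higher pattern therefore did not carry over to D27 and carried over only weakly to D24. These lists held 45 to 68 genes and shared 38 to 45 with the members.

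The rule did not use the change of the right minus left difference with pacing. It did choose the members by the mean and sign of these same differences over all sheep. The values below are therefore not independent of the choice. In whole tissue the gap between the sides was narrower in paced sheep for most members. The median right minus left was 1.19 in control sheep, 0.43 in transition sheep and 0.70 in chronic sheep; it was smaller in transition than in control sheep for 43 members and smaller in chronic than in control sheep for 38. In limma's moderated test of the difference of differences, adjusted by Benjamini-Hochberg over 12333 genes, 0 of 45 members passed an adjusted p of 0.05 for transition against control, where 0.0243% of all genes passed, and 0 for chronic against control, where 0% passed. At an unadjusted p under 0.05, 22 of 45 members and 925 of all genes were reached for transition, and 10 members and 815 genes for chronic. Over both paced states 0 members were called, against 0.0486% of all genes, and 15 members and 1041 genes had an unadjusted p under 0.05. The median of the fitted difference over members was −0.77 for transition and −0.52 for chronic, against −0.43 and −0.22 over those of the other right-higher genes that were tested. Those other genes narrowed as well, with a median right minus left of 1.07 in control, 0.68 in transition and 0.87 in chronic sheep. The narrowing was thus not shown to be particular to the members. Transition and chronic sheep were set against the same controls, so the comparisons are not independent of each other. In 15 members every transition sheep had a smaller difference than every control sheep, against 6.08% of all genes, and in 9 members every chronic sheep did, against 5.72% of all genes. Neither these counts nor those at an unadjusted p were made for the other right-higher genes.

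The member with the smallest p for this change in whole tissue was ENSOARG00000018248. Its right appendage had 6.86, 6.60 and 7.03 log2 CPM in the transition sheep D24, D27 and D30 and 6.39, 7.18 and 6.70 in the control sheep C1, S3 and S4. Its left appendage had 6.46, 6.77 and 6.37 in these transition sheep and 5.33, 5.10 and 5.29 in these control sheep. The right samples of both states overlapped, while the left samples of transition sheep lay above all left samples of controls. The right minus left difference in transition sheep minus that in control sheep was −1.22 (limma adjusted p = 0.202) and −1.11 ± 0.24 (SE) over both paced states (limma adjusted p = 0.153), and neither passed the threshold.

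In cardiomyocytes the difference moved the other way. The median right minus left was −0.47 in control sheep, 0.11 in transition sheep and 0.0001 in chronic sheep. The other right-higher genes moved the same way, with medians of 0.46, 0.89 and 0.99, so the shift was not shown to be particular to the members. For the members it was larger than in control sheep for 40 members in transition and 38 in chronic sheep. No member passed limma's test of this change over 12279 genes. For transition 0 of 45 were called, where 0% of all genes were, and 13 members and 781 genes had an unadjusted p under 0.05. For chronic 0 were called, where 0.358% of all genes were, and 9 members and 1749 genes had an unadjusted p under 0.05. Over both paced states 0 were called, where 0.0244% of all genes were, and 19 members and 1432 genes had an unadjusted p under 0.05. The rule bounded the mean of these same cardiomyocyte differences, so these counts are not independent of the choice either. Counts at an unadjusted p were not made for the other right-higher genes. The fitted medians were 0.57 for transition and 0.52 for chronic, against 0.44 and 0.52 over those of the other right-higher genes that were tested. The smallest p for chronic sheep belonged to ENSOARG00000018898, with a change of 1.36 ± 0.37 (SE, limma adjusted p = 0.121).

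Looking at each side alone shows where these shifts lay. In left appendage tissue 37 of 45 members were higher in transition than in control sheep, with a median of 0.48, and 36 were higher in chronic than in control sheep, with a median of 0.38. In right appendage tissue the medians were −0.36, with 34 members lower, for transition and 0.03, with 24 higher, for chronic. Of the members, 24 had a mean paced change below 0 on the right and above 0 on the left, against 172 of the 526 other right-higher genes and 13.7% of all genes. The opposite pair of signs was found in 1 member, against 29 of the other right-higher genes and 15.03% of all genes. In cardiomyocytes the left side of transition sheep was lower than in controls for 41 members, with a median of −0.68, while the right side had a median of −0.04. There 23 members had a paced change above 0 on the right and below 0 on the left, against 172 of the other right-higher genes and 13.8% of all genes, and 2 had the opposite pair, against 32 of the other right-higher genes. In left cardiomyocytes of transition sheep the other right-higher genes had a median of −0.71, and in left tissue 0.04 for transition and 0.09 for chronic. The rule keeps the mean of these changes over both sides and states under 0.8 in size, so they are descriptions.

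**Figure D3:**
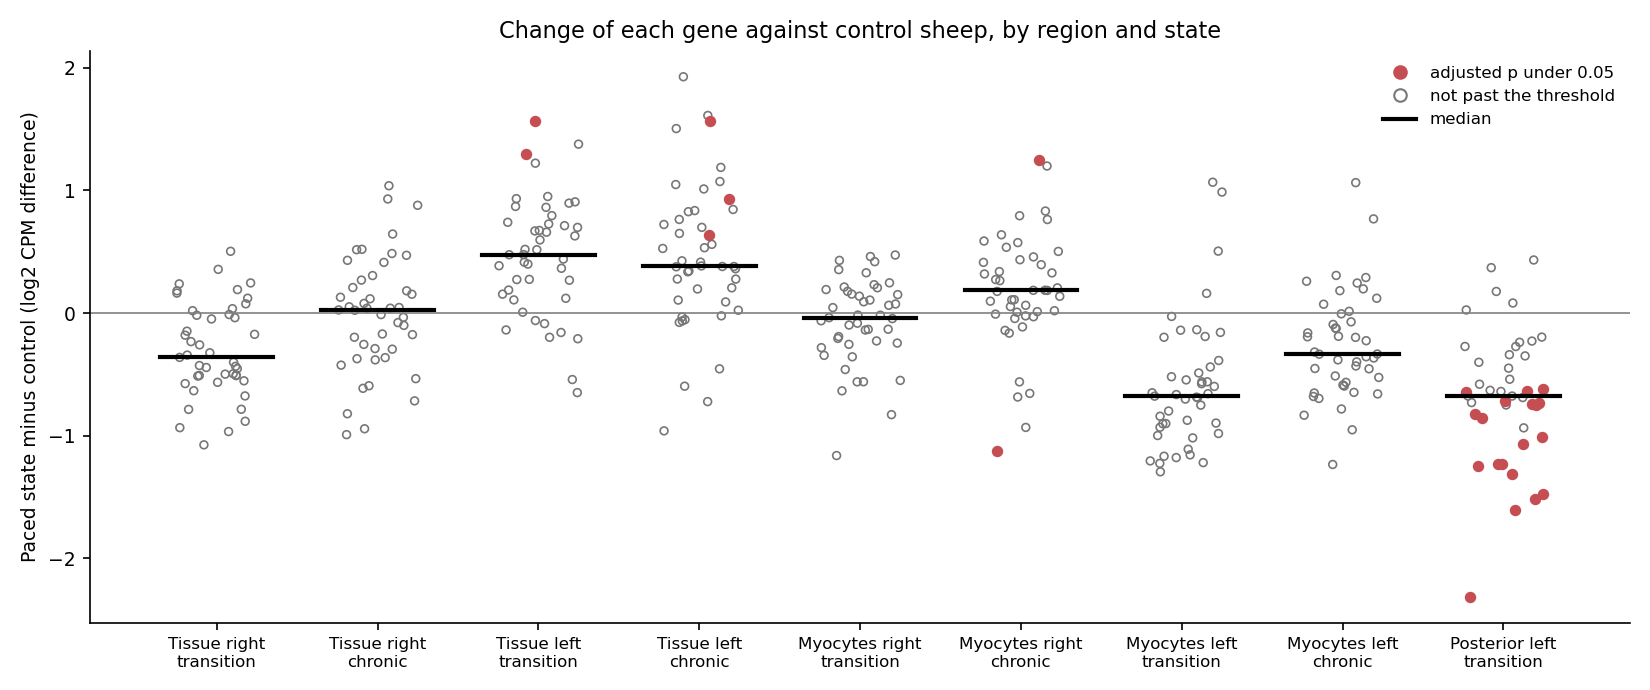
Difference between paced and control sheep (log2 CPM) for each member, by sample kind, side and state, with filled points for a limma adjusted p under 0.05, open points for the others and a bar at the median. In whole tissue most members lie above 0 on the left, in left cardiomyocytes of transition sheep most lie below 0, and in the posterior left atrium, which the rule did not use, 19 of 43 members are called, all lower. The rule limits the calls in the appendages.

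Single members on a single side are described next. The rule left out genes with a large mean paced change, which limits how many members limma can call here, so the counts of calls are not a comparison of the members with all genes. In left appendage tissue limma put 2 members past an adjusted p of 0.05 as higher in transition sheep, where 1.06% of all genes were, and 14 members and 1811 of 12333 genes had an unadjusted p under 0.05. ENSOARG00000018248, with the left values above, was 1.30 ± 0.24 (SE) higher on the log2 scale. ENSOARG00000019404 had 7.27, 6.60 and 6.45 log2 CPM in left tissue of the transition sheep D24, D27 and D30, against 5.58, 4.61 and 5.44 in the control sheep C1, S3 and S4, and was 1.57 ± 0.34 higher. Neither pair of groups overlapped. Without S4, D24 or D27 no member was called, and 1 was called without S3.

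In chronic sheep 3 members were called higher in left tissue, where 4.43% of all genes were, and 15 members and 2961 genes had an unadjusted p under 0.05. ENSOARG00000006410 had 4.86, 5.96 and 5.04 log2 CPM in left tissue of the chronic sheep D15, D16 and D19, against 4.08, 3.15 and 3.92 in the control sheep C1, S3 and S4, and was 1.57 ± 0.35 (SE) higher. ENSOARG00000018248 had 6.09, 6.53 and 5.88 in these chronic sheep and was 0.93 ± 0.24 higher. No chronic value of either gene reached down to a control value. No member was called without S3, 1 without D16 or S4, and 5 without D15 or D19.

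On the right side of whole tissue limma called 0 members in transition sheep, where 0.624% of all genes were called, and 5 members and 1870 genes had an unadjusted p under 0.05. In chronic sheep it called 0, where 1.26% of all genes were called, and 6 members and 1965 genes had an unadjusted p under 0.05. ENSOARG00000019281 was nearest the threshold in both states. It had 4.72, 4.47 and 4.23 log2 CPM in right tissue of D24, D27 and D30, against 5.28, 5.36 and 5.13 in C1, S3 and S4, a difference of −0.79 for transition sheep. Without D15, whose samples enter the shared spread, this member passed in both states.

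In cardiomyocytes, limma called 2 members on the right in chronic sheep, where 5.16% of all genes were called, and 5 members and 2632 of 12279 genes had an unadjusted p under 0.05. ENSOARG00000010035 had 6.05, 5.44 and 4.89 log2 CPM in the chronic sheep D16, D19 and D20, against 4.54, 4.04 and 4.07 in C1, S3 and S4, and was 1.25 ± 0.35 (SE) higher. ENSOARG00000013376 had 1.85, 1.64 and 1.16 in the chronic sheep, against 2.61, 2.90 and 2.52 in the controls, and was lower, with a difference of −1.13 ± 0.29. Neither gene's groups overlapped, but 0 members were called without C1, S3, S4, D16 or D19 and 1 without D24 or D20. In left cardiomyocytes of transition sheep 0 members were called, where 3.40% of all genes were, and 24 of 45 members and 2576 of all genes had an unadjusted p under 0.05. Leaving out D23 gave 8 calls there and leaving out S3 gave 1. ENSOARG00000018194 had 2.90, 2.88 and 3.05 log2 CPM in left cardiomyocytes of D23, D24 and D27, against 4.86, 3.56 and 4.28 in C1, S3 and S4, a difference of −1.29 ± 0.41 (SE). Right cardiomyocytes of transition sheep gave 0 calls, where 0.652% of all genes were called, and 1 member and 1646 genes had an unadjusted p under 0.05. Left cardiomyocytes of chronic sheep gave 0 calls, where 7.64% of all genes were called, and 7 members and 2914 genes had an unadjusted p under 0.05.

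The paced change in the rule averages chronic and transition sheep, so it does not bound their difference. The right-higher criterion did use the right minus left sign of each of these whole tissue sheep. The values below are therefore not independent of the choice. In whole tissue 0 members differed on the right or on the left by limma's adjusted p, as did 0% of all genes. An unadjusted p under 0.05 was reached by 10 members and 747 genes on the right and by 5 members and 1352 genes on the left. In cardiomyocytes 0 members differed on either side, where 0.00814% of all genes did on each side, and 6 members on each side had an unadjusted p under 0.05, beside 1098 genes on the right and 865 on the left. The median of chronic minus transition over members was 0.20 on the right and 0.00039 on the left in whole tissue, where 23 of 45 were above 0, and 0.27 on the right and 0.35 on the left in cardiomyocytes. Over those of the other right-higher genes that were tested it was 0.22 and 0.02 in whole tissue and 0.45 and 0.36 in cardiomyocytes. The smallest p of a single member belonged to ENSOARG00000015707 in right tissue, at 1.36 ± 0.43 (SE, limma adjusted p = 0.702). In right cardiomyocytes it belonged to ENSOARG00000020646, at 1.43 ± 0.46 (limma adjusted p = 0.510). That value rested on few reads, with 21, 4 and 7 in D23, D24 and D27 and 26, 20 and 12 in D16, D19 and D20. A difference between the paced states was thus not detectable for any member with 3 sheep per state.

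The posterior left atrium was not used in choosing the members, and 43 of the 45 had values there. A difference between sets of sheep had been removed from these values before deposit, by a step not given. The calls and p-values below rest on such altered values. Members were lower in transition than in control sheep: limma, with state and set of sheep in the model, called 19 of 43 lower and 0 higher, where 8.68% of 12035 genes were called lower and 8.84% higher. The median difference over members was −0.68, against −0.01 over all genes, with a range between −2.31 and 0.43, and 38 of 43 members had a lower level in transition sheep. Other right-higher genes did much the same. Of 393 that were tested there, 150 were called lower and 15 higher, with a median of −0.65. The fall was thus not shown to be particular to the members.

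By sheep, the median level of the members was 3.20 (G5), 2.64 (G13), 3.31 (G34), 2.90 (G26), 2.88 (D24) and 2.92 (D27) log2 CPM in transition sheep, against 3.52 (G21), 3.96 (G32), 3.56 (G36), 3.76 (S3), 3.70 (S4) and 3.53 (C1) in control sheep. The highest transition sheep lay below the lowest control sheep. In 10 members every transition sheep lay below every control sheep, against 3.32% of all genes, and in 0 members above, against 4.25%. The sheep fall into a set with G numbers and a set with S, C or D names, and the difference was present in both. Among G sheep the median was −0.66 with 35 of 43 members lower, where 51.7% of all genes were lower, and among S, C and D sheep it was −0.66 with 39 lower, where 50.6% were. Fitted alone, the G sheep gave 11 members called lower, where 2.50% of all genes were, and the S, C and D sheep 6, where 0.931% were.

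ENSOARG00000017833, the member with the widest right minus left difference, also had the largest fall here. It had 0.41 (G5), 0.95 (G13), 1.78 (G34), −0.60 (G26), 0.79 (D24) and 1.08 (D27) log2 CPM in transition sheep, against 3.002 (G21), 3.59 (G32), 3.10 (G36), 3.08 (S3), 2.97 (S4) and 2.48 (C1) in control sheep. These groups did not overlap, and their means were 0.74 ± 0.80 in transition sheep and 3.04 ± 0.36 in control sheep (SD, n = 6 each). The fitted difference was −2.31 ± 0.34 (SE), or 4.97-fold lower in transition sheep (limma adjusted p = 0.00058, and 0.000238 to 0.0359 over the alternatives). ENSOARG00000018194 had 3.24, 2.62, 3.77, 2.18, 2.88 and 3.34 log2 CPM in the transition sheep in the same order, against 4.88, 4.95, 4.34, 4.44, 4.83 and 4.18 in the control sheep. Its groups did not overlap either, and it was 3.04-fold lower in transition sheep, with a log2 difference of −1.60 ± 0.24 (limma adjusted p = 0.000758, and 0.00032 to 0.0427 over the alternatives).

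**Figure D4:**
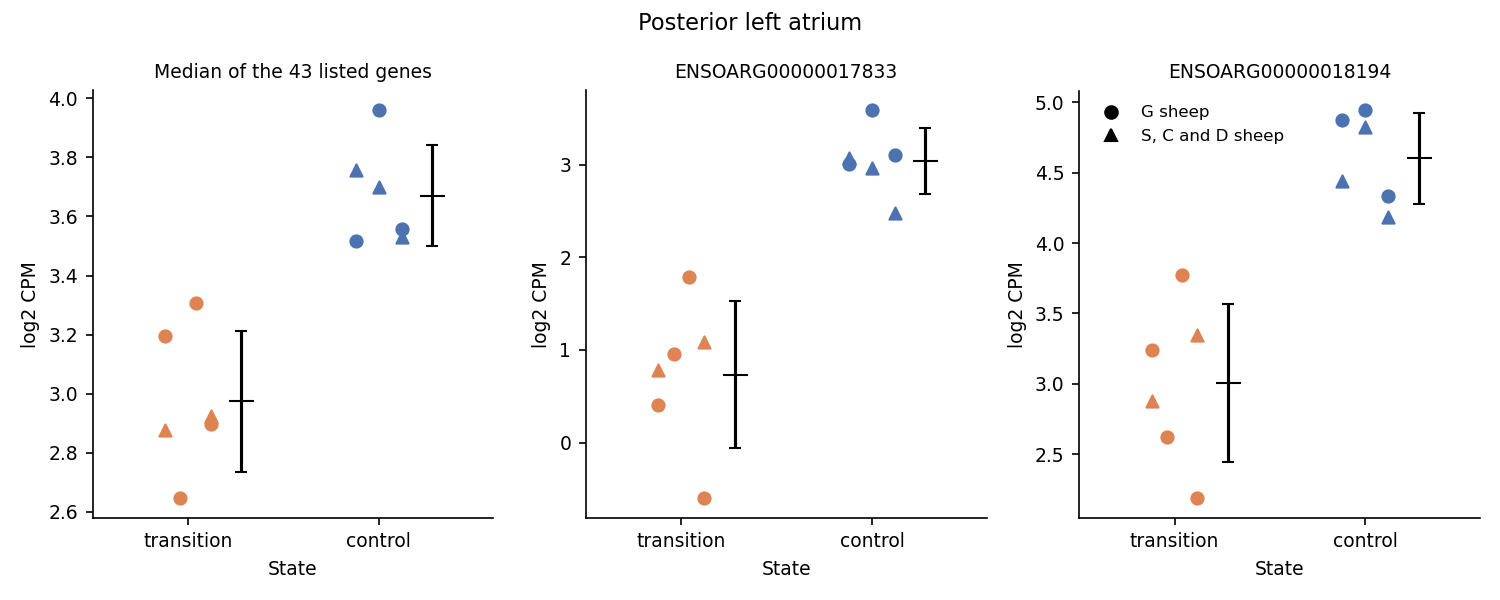
Levels (log2 CPM) in the posterior left atrium of 6 transition and 6 control sheep: the median over 43 members, ENSOARG00000017833 and ENSOARG00000018194, with a point per sheep (circles for G sheep, triangles for S, C and D sheep) and the mean ± SD beside them. Median levels lie between 2.64 and 3.31 in transition sheep and between 3.52 and 3.96 in control sheep, and the states do not overlap in any of the 3 panels.

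The posterior left atrium was set beside the appendages of the 5 sheep that gave all tissue samples. Averaged over these sheep, the members' median level there lay nearer the left than the right appendage, but not in each sheep. In S4 the median was −0.67 against the right appendage and 0.75 against the left. The rule chose the members by these same appendage values. The tables were normalised separately, so no test was made across them. Posterior left atrium minus right appendage tissue had a median of −0.89 over members, −0.96 over the other right-higher genes and −0.14 over all genes, and 30 of 43 members were below 0 in every sheep, against 24.6% of all genes. Posterior left atrium minus left appendage tissue had a median of 0.01 over members, −0.11 over the other right-higher genes and −0.15 over all genes. By sheep this second median was −0.90 in D24 and −0.64 in D27, the transition sheep, against 0.24 in C1, 0.68 in S3 and 0.75 in S4, the controls. The left appendage level of members was thus above the posterior left atrium in both transition sheep and below it in all 3 controls.

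The same kind of comparison was made between whole tissue and cardiomyocytes in the 7 sheep with both. Whole tissue minus cardiomyocytes, averaged over the sides, had a median of 0.80 over members, 0.68 over the other right-higher genes and 0.36 over all genes. Over members it lay between −2.45 and 2.13. It was above 0 for 38 of 45 members, against 75.5% of all genes, and above 0 in every sheep for 28, against 45.2% of all genes. On the right the median was 1.33 over members and 0.36 over all genes, and on the left 0.31 and 0.34. On the right 33 members were above 0 in every sheep, against 35.98% of all genes, and on the left 9, against 39.54%. Averaged over the 7 sheep, the members' median thus lay above that of all genes on the right and not on the left. The rule itself sets this gap between the sides. On the left the median over members was −0.43 in C1, −0.10 in S3 and −0.15 in S4, the controls. It was 0.96 in D24 and 1.25 in D27, the transition sheep, and 0.78 in D16 and 0.10 in D19, the chronic sheep. On the right the same medians ran between 1.03 and 1.89 in all 7 sheep, and those of paced and control sheep overlapped. In 1 member the value was below 0 in every sheep, so the members are not all genes of higher level in tissue.

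**Figure D5:**
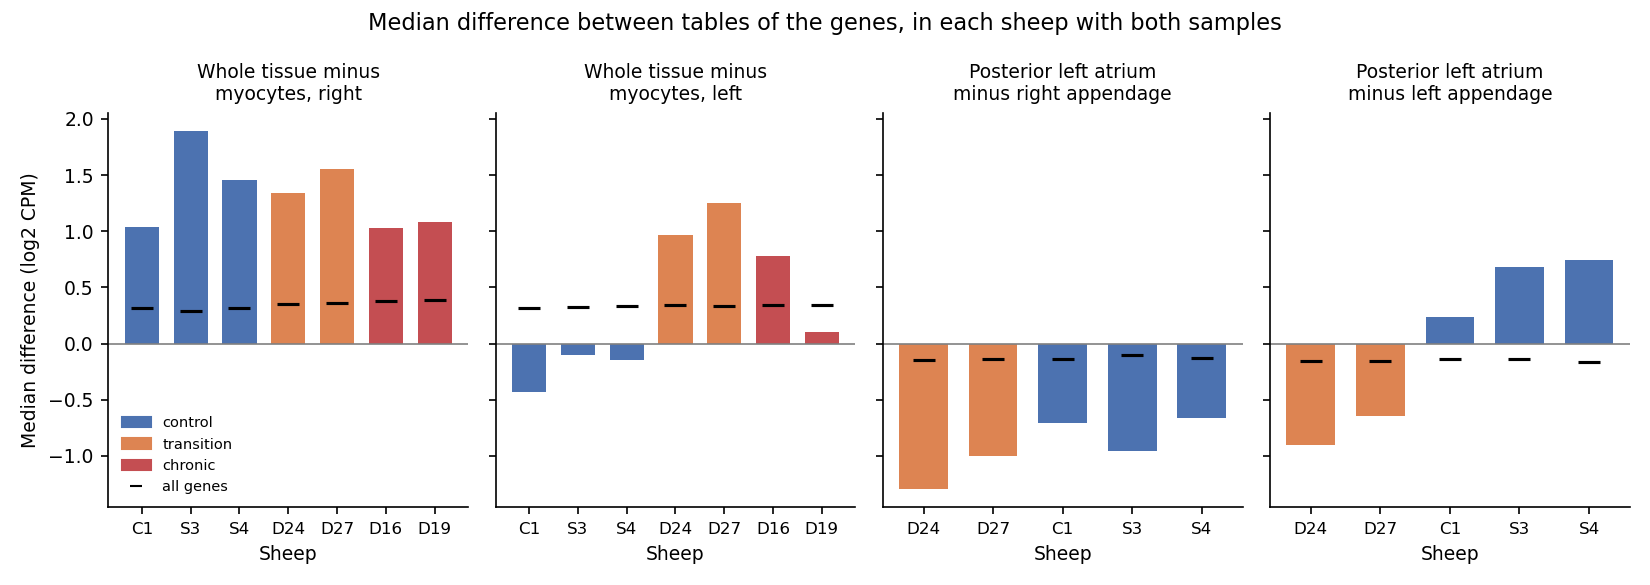
Median over members of the difference between tables (log2 CPM) in each sheep with both samples, as bars coloured by state, and the median over all genes as a short line. On the left, whole tissue minus cardiomyocytes is above 0 in transition and chronic sheep and below 0 in control sheep, and posterior left atrium minus left appendage is below 0 in transition sheep and above 0 in control sheep. For left whole tissue minus cardiomyocytes, the chronic sheep D19 lies below the line for all genes, as the control sheep do.

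Genes outside the members that are higher in whole tissue than in cardiomyocytes were set beside them as a class. A list of 1323 such genes, higher by at least 1 on the log2 scale, had a median right minus left difference in whole tissue between 0.01 and 0.32 over the 9 sheep, where the members had 0.28 to 1.70. A list of 400 genes higher in cardiomyocytes by at least 1 had −0.16 to 0.21. Both lists were drawn from these samples after their values were seen. The members' higher values are set by the rule. The genes that the rule chose without the tissue of D27 had a median of −0.12 in that sheep, below the 0.01 of the tissue-enriched list there. In each other sheep, the genes chosen without its tissue had a median above that of this list. The values ran from 0.088 against 0.05 in D24 to 1.52 against 0.09 in S3. What a particular cell type adds to the members' difference was not tested.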

How the data were processed

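Libraries were made with the Illumina NEBNext Ultra kit, per the labels' protocols, and bcl2fastq, cutadapt, RSEM and limma are named, with neither version nor role, in the submitters' processing notes. Aligner, genome build, annotation and strand use: not given in the sources used here. Reads of near-identical or overlapping genes may have been split between them. The deposited values are log2 CPM with technical replicates merged by the authors, and 0 columns lacked a matching sample. In both appendage tables every value was the log2 of a whole read count plus 0.5 over a scaled library size, within 0.05 reads (237366 and 238716 values), so reads could be counted. Posterior left atrium values were altered after the log was taken: 0.465% of genes had a p under 0.1 and 17.7% a p over 0.9 between the sets of sheep, so a difference between sets had been removed before deposit. The p-values and calls for the posterior left atrium rest on these altered values.

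Tests were made in R 4.3.3 by limma 3.58.1, allowing a mean-variance trend, on the deposited values with a filter of mean log2 CPM of 0 or more, Benjamini-Hochberg adjustment over all genes of a table (12333, 12279 and 12035) and a threshold of 0.05. Each appendage table was fitted as 6 group means with sheep as a random block, since both sides come from the same animal (consensus correlation 0.294 in whole tissue and 0.470 in cardiomyocytes). State and set were the terms for the posterior left atrium. The limma fit was checked on simulated data. Alternatives were no filter, log2(CPM + 1), other scalings, no replicate block, each side alone and each sheep left out, together with the sheep sets alone and each side alone against control, added after seeing the data. Count models were not used on log2 values.

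The members and lists were chosen with earlier results of these data known. Named by rule were the members with the largest right minus left difference, the member just inside the threshold, and per comparison up to 2 called members in each direction or the one with the smallest p. Lists of cell type marker symbols could not be used, as no identifier matched a name. Each sheep is a replicate; the technical replicate labels differ between the sample kinds and between the sets of posterior left atrium sheep, but not between the states of an appendage table.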

Additional observations from a re-analysis of the deposited data

Results flagged for a closer look

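Differences between tables pointed in opposite directions in paced and control sheep for 3 comparisons of the left side, with every sheep of a state on the same side of 0. Posterior left atrium minus left appendage tissue, as the median over members, averaged −0.77 in the 2 transition sheep and 0.56 in the 3 control sheep. Whole tissue minus cardiomyocytes on the left averaged 1.11 in the 2 transition sheep and −0.23 in the 3 control sheep, and 0.44 in the 2 chronic sheep and −0.23 in the same controls. All genes had a median of 0.34 there, so 0 is not a neutral point between these tables. In the chronic sheep D19 the members had 0.10 against 0.35 over all genes. D19 thus lay below all genes, as the control sheep did. These differences were not tested, since the tables were normalised separately and the states hold 2 or 3 sheep each. The comparisons share left appendage tissue and control sheep. In 6 groups large enough to be examined, 0 held a sheep whose value stood far from the others.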

How the results depend on the processing

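Of the values recomputed for comparisons under alternatives, 288 stayed near the reported value and 32 did not, and the cause was not tested. A count was taken as near within 1.5 times the reported count. A median between tables was taken as near within its SD over sheep. For named members 319 values kept their call, 29 lost it, 3 gained it and 0 turned sign. Without the whole tissue of each sheep in turn the rule took 45 to 68 genes. It took 57 with log2(CPM + 1), 45 with median rescaling and 55 with library totals. Of these, 38, 43 and 34 were among the 45 members. Library totals raised the median right minus left of all genes to 0.11 in whole tissue, against −0.01. In left tissue 2 members were called in transition sheep, with 0 to 3 without each sheep in turn and 1 with each side fitted alone. In chronic sheep 3 were called there, with 0 to 5 without each sheep in turn and 5 with each side fitted alone. Right tissue gave 0 to 1 in transition sheep and 0 to 1 in chronic sheep when a sheep was left out. In cardiomyocytes, left transition gave 0 to 8 and, with each side alone, 2. Right chronic gave 0 to 2 without each sheep in turn, 1 without the filter, 1 with library totals and 0 with each side alone, and right chronic against transition gave 0 to 1. The posterior left atrium gave 18 to 20 without each sheep in turn, 11 in the G sheep alone and 6 in the S, C and D sheep alone. Without the replicate block, that is without pairing the sides of a sheep, 5 members were called in left tissue of chronic sheep, against 3 with it, and 1 in right cardiomyocytes of chronic sheep, against 2 with it; no other count of members changed by more than 1.5 times. With 3 sheep per state, changes much smaller than those called could not be seen.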

Other observations

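Members varied together across samples more than they did with other genes. Over the 18 whole tissue samples the median Pearson r of 990 pairs of members was 0.56, against −0.02 between members and other genes. The shared side difference, which the rule requires, enters this value. After the mean of each side and state was taken away, the median r was 0.23 in whole tissue and 0.48 in cardiomyocytes, against −0.0011 and −0.04 with other genes. In the posterior left atrium, with the mean of each state taken away, it was 0.22 over 903 pairs in 12 sheep, against −0.0005 with other genes. The samples of a table share library preparation and scaling, and the values are descriptions.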
